A study of Homo sapiens with 2 samples.

Results

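The genes described here are 33 regulators and target genes of p53, taken by gene symbol from the 16399 genes measured in both libraries. Each symbol matched 1 Entrez ID, and all 33 genes were expressed at 1 count per 1000000 counts (CPM) or more in both libraries. The gene of p53 itself is not among them. RNA sequencing compared A549, an established human lung adenocarcinoma line with wild-type p53, carrying a vector or overexpressing plakophilin 2 (PKP2), a protein of the desmosomal plaque, fused to an SFB tag. The labels give passage 5 and DMEM with serum for each culture and name no other treatment. The vector and PKP2 groups held 1 library each, of 16996976 and 16808842 estimated counts, so no difference has a replicate check and no p-value was computed. Whether the cells were 1 clone or a pool is not given in the sources used here.

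The transcription factor p53 is held low by the ubiquitin ligase MDM2, itself a p53 target, which closes a feedback loop. After DNA damage or other stress p53 accumulates and switches on genes that stop the cell cycle, repair DNA, adjust metabolism or start apoptosis. In lung adenocarcinoma lines that keep wild-type p53, these genes are used as a readout of p53 activity. The members were grouped by role into feedback and control (5 genes), growth arrest (5), intracellular cell death (9), death receptors (4), repair and nucleotide supply (4), and metabolism, antioxidant and other roles (6).

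PKP2 itself went from 464 counts (27.3 CPM) with the vector to 4505 counts (268 CPM) with the construct, a ratio of 9.82 with a 95% counting interval of 8.92 to 10.8, which matches the labels. All 6 epithelial markers were analysed, and their summed levels were 9607 and 9692 CPM (here and below, vector first and PKP2 second), nearly all of it keratin. EPCAM was low, at 1.47 and 1.37 CPM. Of the alveolar type 2 markers, ABCA3 was at 91.7 and 83.1 CPM and SFTPB at 0 and 1 count. Leukocyte markers summed to 3.41 and 3.45 CPM over 2 of 5 genes, endothelial markers to 0.235 and 0.892 CPM over 3 of 4 (VWF at 0 and 2 counts), and fibroblast markers to 9.06 and 11.5 CPM over 3 of 5. The fibroblast sum was mostly COL1A1, at 8.12 and 10.4 CPM. The part of these differences in the results below was not tested.

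p53 binds DNA as a tetramer at paired half-sites. The half-site consensus has 10 bases, with 3 purines, C, 2 bases that are A or T, G and 3 pyrimidines, and reads the same on both strands. RefSeq promoter windows on GRCh38.p14, of 300 bases with 250 before the start and 50 after it, were at hand for 26 of the 33 genes. The other genes were FBXO22, GADD45A, PHLDA3, RRM2B, TNFRSF10A, TNFRSF10B and TP53INP1. A full half-site was in the windows of 6 of the 26 genes (23.1%), against 7.62% of 10441 expressed genes and 8.06% of all 27305 genes with a window. A run of 20 bases that matched a pair of adjacent half-sites with at most 3 mismatches and both C and G cores intact was in 8 of 26 (30.8%), against 1.61% of expressed genes and 1.37% of all genes. The members are known p53 targets, so this share describes the list, and a match is not evidence of binding in these cells. The sequences below are those of the 3 genes with a half-site and the largest differences between the libraries, FAS, FDXR and DDB2, and that of MDM2, chosen after the match was seen because it is the inner promoter of the feedback gene. Capitals mark the matches, each written 5′ to 3′ on the gene's strand.
FAS, 250 bases before the start, chr10:88991181-88991430, plus strand: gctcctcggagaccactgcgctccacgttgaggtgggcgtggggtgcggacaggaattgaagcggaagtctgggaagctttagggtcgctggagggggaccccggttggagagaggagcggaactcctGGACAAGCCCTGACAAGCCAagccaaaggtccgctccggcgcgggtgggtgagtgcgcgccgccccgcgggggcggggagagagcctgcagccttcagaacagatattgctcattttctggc
FDXR, 250 bases before the start, chr17:74872995-74873244, minus strand: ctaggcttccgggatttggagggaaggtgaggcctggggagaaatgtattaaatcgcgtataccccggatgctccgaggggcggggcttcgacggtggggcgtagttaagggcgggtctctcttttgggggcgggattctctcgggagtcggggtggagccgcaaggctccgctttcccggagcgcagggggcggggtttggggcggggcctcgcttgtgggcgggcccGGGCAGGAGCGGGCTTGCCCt
DDB2, 31 bases across the start, chr11:47214969-47214999, plus strand: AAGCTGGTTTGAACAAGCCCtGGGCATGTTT
MDM2, 250 bases before an inner start, chr12:68808767-68809016, plus strand: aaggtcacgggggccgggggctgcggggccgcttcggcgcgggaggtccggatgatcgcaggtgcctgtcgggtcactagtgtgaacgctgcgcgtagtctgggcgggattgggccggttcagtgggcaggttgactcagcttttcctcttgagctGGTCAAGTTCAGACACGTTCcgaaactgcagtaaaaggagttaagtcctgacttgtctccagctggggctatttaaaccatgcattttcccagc
Starts are those of the RefSeq windows, and some lie inside the annotated gene, as for FAS, MDM2, DDB2, SESN1 and GDF15. In FAS, a gene annotated from 88990582, the 20 bases begin 122 bases before such an inner start and hold 2 mismatches. In MDM2 they begin 94 bases before the start, also with 2 mismatches, and no full half-site lies in that window. DDB2 has a pair of full half-sites after its start and a run of 20 bases with 1 mismatch that overlaps the first of them. In FDXR the full half-site forms the last 10 bases of a run with 3 mismatches.
AEN and SESN1 held a half-site inside such a run too, and PMAIP1 held a run with 3 mismatches. PLK2 held a half-site alone and GDF15 a run after its start with 3 mismatches. The shorter sites compare as follows, with all bases of the match in capitals.
AEN, 20 bases beginning 34 before the start: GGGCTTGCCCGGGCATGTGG
SESN1, 20 bases beginning 49 before the start: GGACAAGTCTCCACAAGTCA
PMAIP1, 20 bases beginning 185 before the start: GAGCGTGTCCGGGCAGGTCG
PLK2, 10 bases beginning 132 before the start: AGACTTGCTT
The 9 genes with a match lay between -0.10 (FAS) and 0.09 (GDF15) in the difference of log2(CPM + 1), PKP2 minus vector. None of the 9 was past 1.2-fold, where 8.7% of expressed genes were higher and 11% lower by that fold. Of the members past 1.2-fold, TNFRSF10A and TP53INP1 had no window, and BBC3 and ZMAT3 had one without a match. With so few genes this count does not show that members with a match differ less than the others.

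Over the whole list the libraries barely differed. Of the 33 genes 16 were higher and 17 lower in the PKP2 library, against 49.7% and 50.3% of the 12820 expressed genes. The median difference was 0.00 for the members and 0.00 for all expressed genes. At 1.1-fold 8 members were higher and 6 lower, against 23.4% and 25.5% of expressed genes. No member was 1.5-fold or more higher or lower, which 0.733% and 0.788% of expressed genes were, or 2-fold, which 0.0858% and 0.101% were. At 1.2-fold, 1 member (BBC3) was higher and 3 (TNFRSF10A, TP53INP1 and ZMAT3) were lower, against 8.7% and 11% of expressed genes. The ratio of CPM, PKP2 over vector, had a 95% counting interval above 1 for 7 members and below 1 for 6, against 16.3% and 19.8% of expressed genes. All members had a mean level of at least 5 CPM, and among the 10846 genes that did the shares were 18.2% and 22.6%. The members' counts of 7 and 6 correspond to 21.2% and 18.2%, close to those shares. Counting intervals cover counting error only, not the spread between cultures, and where a gene is said to be lower by a fold the interval is that of vector over PKP2. In RNA of a whole culture, fewer cells with a transcript and less of it per cell cannot be told apart.

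**Figure D1:**
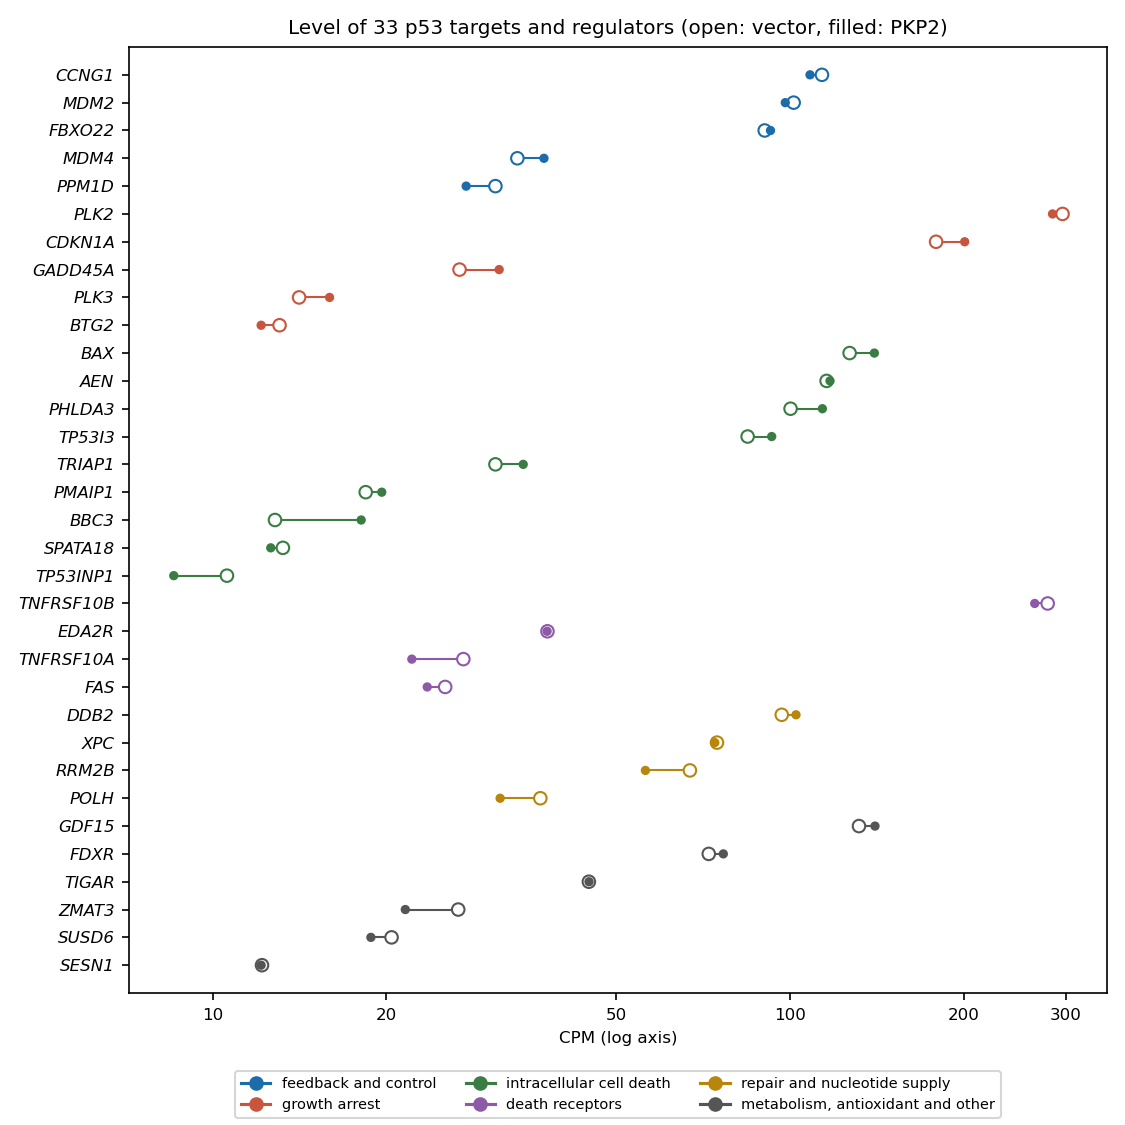
Level of each of the 33 genes in CPM on a log axis, with open circles for the vector library and filled circles for the PKP2 library, coloured by role; each row is to be read on its own, since CPM does not allow for length. Most pairs of circles nearly touch, and the widest gap is that of BBC3, at 12.8 and 18.1 CPM.

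The 5 feedback and control genes had ratios from 0.890 to 1.11 and intervals that all included 1. MDM2, the ligase that marks p53 for degradation (Entrez ID 4193, chromosome 12, 68808176 to 68850686, plus strand, GRCh38), was at 101.4 CPM (1724 counts) and 98.1 CPM (1649 counts). The ratio was 0.967, with a counting interval of 0.904 to 1.04 that includes 1. MDM4, the MDM2 relative that blocks p53's activating domain, stood at 33.7 and 37.5 CPM, a ratio of 1.11 (0.991 to 1.25). PPM1D, the WIP1 phosphatase that shuts down damage signalling, stood at 30.9 and 27.5 CPM, a ratio of 0.890 (0.784 to 1.01). CCNG1, cyclin G1, which recruits a phosphatase to MDM2, was at 113.6 and 108.3 CPM. FBXO22, a ubiquitin ligase subunit with a fractional count, was at 90.4 and 92.5 CPM. Of the 5 genes 2 were higher and 3 lower. Their median difference of -0.05 turned to 0.16 when a trend on the longest transcript's length and GC content, described below, was removed, and to 0.01 with the median transcript length.

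Growth arrest genes had a median difference of 0.16, with 3 of 5 higher, against 49.7% of all expressed genes. The median turned to -0.06 without CDKN1A and PLK3, whose exons overlap those of other genes. CDKN1A, which encodes the cyclin-dependent kinase inhibitor p21 (Entrez ID 1026, chromosome 6, 36676460 to 36687339, plus strand), was at 179 CPM (3042 counts) and 201 CPM (3372 counts). Its level was 1.12-fold higher with PKP2 (1.07 to 1.18). GADD45A, a stress sensor that acts on cell cycle kinases and DNA repair, was at 26.8 and 31.4 CPM, 1.17-fold higher (1.03 to 1.33). The stress kinase PLK3 had the same direction, at 14.1 and 15.9 CPM, but its interval of 0.945 to 1.35 includes 1. Its relative PLK2 was the member with the most counts, 5037 and 4786, or 296 and 285 CPM. The interval of its ratio of 0.961 ran from 0.923 to 0.9998 and thus ended just below 1, and under both other scalings of the libraries it included 1. BTG2, an antiproliferative adaptor of mRNA deadenylation, was at 13.1 and 12.1 CPM, with an interval of 0.765 to 1.13. After removal of that trend the difference of CDKN1A was 0.04 in place of 0.16 and that of GADD45A 0.09 in place of 0.22. With the median transcript length the differences were 0.08 for CDKN1A and 0.17 for GADD45A.

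Among the intracellular cell death genes 7 of 9 were higher, 4 of them with an interval above 1, and the median difference was 0.14. Among all expressed genes 49.7% were higher and 16.3% had an interval above 1, and 6 of the 9 were higher with the length and GC trend removed. Without the genes whose exons overlap others, the median was 0.05. BBC3, which encodes the BH3-only protein PUMA (Entrez ID 27113, chromosome 19, 47220822 to 47232766, minus strand), was at 12.8 CPM (218 counts) and 18.1 CPM (304 counts). It was 1.41-fold higher (1.18 to 1.69), the largest difference of the 33 genes. PMAIP1, which encodes NOXA, the other BH3-only member, was at 18.4 and 19.6 CPM, with an interval of 0.911 to 1.25. The intervals of these 2 BH3-only genes overlap. BAX, the pore-forming effector that BH3-only proteins activate (Entrez ID 581, chromosome 19, 48954815 to 48961798, plus strand), was at 126.8 and 139.9 CPM, 1.104-fold higher (1.04 to 1.17), a direction that turned once this trend was removed. PHLDA3, an inhibitor of the kinase AKT, was 1.14-fold higher (1.06 to 1.21), at 100.2 and 114 CPM, but its difference of 0.18 was 0.08 without the trend. The oxidoreductase gene TP53I3 was 1.101-fold higher (1.02 to 1.18), at 84.4 and 92.9 CPM, a difference of 0.14 that was 0.00 without the trend.

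The remaining cell death genes had intervals that included 1. TRIAP1, a small mitochondrial protein that restrains apoptosis, was at 30.9 and 34.5 CPM and had an interval of 0.991 to 1.26. The nuclease gene AEN was nearly equal, at 115.7 and 117.3 CPM. SPATA18, which acts in mitochondrial quality control, was at 13.2 and 12.6 CPM. TP53INP1, a cofactor of p53 and of autophagy on chromosome 8, was at 10.6 CPM (180 counts) and 8.57 CPM (144 counts). It had the lowest ratio of the 33, 1.24-fold lower, but at this depth its interval of 0.987 to 1.55 includes 1.

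The death receptors lay on the other side from the intracellular genes, with 4 of 4 lower and a median difference of -0.09. Among all expressed genes 50.3% were lower, and the contrast between the groups was not tested. With the length and GC trend removed 1 of the receptors was higher and 3 were lower. Without genes with overlapping exons only EDA2R was left, at 0.00. TNFRSF10A, the TRAIL receptor DR4 (Entrez ID 8797, chromosome 8), was at 27.2 CPM (462 counts) and 22.1 CPM (372 counts), 1.23-fold lower (1.07 to 1.41). TNFRSF10B, the TRAIL receptor DR5 encoded beside it, was far more abundant, at 4747 and 4458 counts (279 and 265 CPM, fractional in the PKP2 library). It was 1.05-fold lower (1.01 to 1.097). The decoy receptors of the same gene cluster are on the list of further targets, and are named here after their values were seen. TNFRSF10D was at 52.6 and 44.8 CPM, 1.17-fold lower (1.06 to 1.30), and TNFRSF10C, at 1.77 and 1.37 CPM, had an interval of 0.724 to 2.33 for its 1.29-fold lower value. FAS, the receptor of FAS ligand, whose promoter site is printed above, was at 25.3 and 23.5 CPM with a fractional count and an interval of 0.810 to 1.07. EDA2R, the ectodysplasin A2 receptor, was at 38.0 CPM in both libraries and counts as lower by a difference of 0.00.

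Repair and nucleotide supply genes were lower in 3 of 4 cases, against 50.3% of all expressed genes. Their median difference was -0.12, or -0.01 without POLH, which has a fractional count. RRM2B, the p53-inducible ribonucleotide reductase subunit, was at 67.1 CPM (1140 counts) and 56.2 CPM (944 counts), 1.19-fold lower (1.09 to 1.30). POLH, the translesion polymerase that copies past ultraviolet damage, was 1.17-fold lower (1.04 to 1.32), at 36.9 and 31.5 CPM. The damage sensors of nucleotide excision repair, XPC and DDB2, did not differ detectably. XPC was at 74.7 and 74.1 CPM, and DDB2, with the paired half-sites at its start, was at 96.7 and 102.4 CPM, with an interval of 0.989 to 1.13. On the log2(CPM + 1) scale RRM2B, at -0.25, and POLH, at -0.22, lay just short of 1.2-fold.

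Genes of metabolism, antioxidant defence and other roles were split, with 3 higher and 3 lower and a median difference of 0.00. GDF15, a secreted stress cytokine of the TGF-beta family (Entrez ID 9518, chromosome 19, 18374731 to 18389176, plus strand), was at 131.6 CPM (2237 counts) and 140.3 CPM (2358 counts). Its ratio was 1.07 (1.01 to 1.13), and it too changed direction with the length and GC trend removed. ZMAT3, an RNA-binding protein that regulates splicing and mRNA stability, was at 26.6 and 21.6 CPM, 1.23-fold lower (1.08 to 1.42), with a fractional count that makes it uncertain. FDXR, which passes electrons to mitochondrial cytochromes and iron-sulfur assembly, was at 72.3 and 76.6 CPM. TIGAR, a phosphatase that lowers glycolytic flux, was at 44.8 and 44.9 CPM, and SESN1, a stress-induced inhibitor of mTORC1, at 12.2 and 12.1 CPM. SUSD6, a membrane protein, was at 20.4 and 18.8 CPM. For these last 4 genes the interval included 1.

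**Figure D2:**
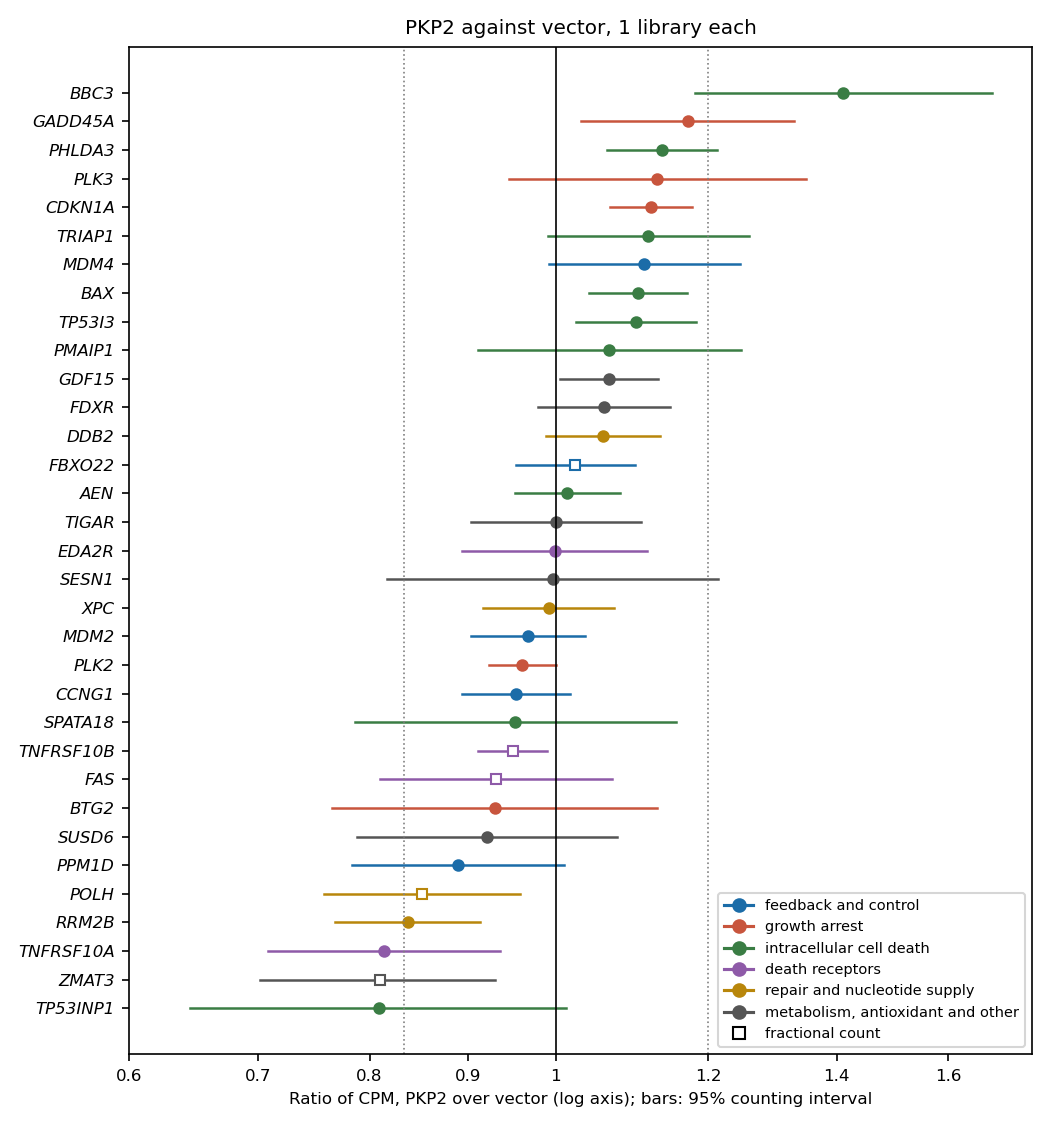
Ratio of CPM, PKP2 over vector, for the 33 genes on a log axis, with 95% counting intervals as bars, colours for roles and open squares for genes with a fractional count; dotted lines mark 1.2-fold in each direction. All but 1 of the 10 uppermost genes act in intracellular cell death or growth arrest, groups that hold 9 and 5 of the 33 genes. GDF15, of another role, lies next below at a ratio almost equal to that of PMAIP1. The lowermost gene, TP53INP1, is also a cell death gene. Of the 33 intervals 20 include 1, and the length and GC trend is not removed here.

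Between genes, levels were compared as CPM per kilobase of the longest annotated transcript. In the vector library GDF15 was highest, at 109.7 CPM per kilobase, followed by PLK2 at 100.1, BAX at 93.4, CDKN1A at 78.9 and TNFRSF10B at 67.4. In the PKP2 library the same 5 genes led, at 116.9 for GDF15, 96.2 for PLK2, 103.0 for BAX, 88.5 for CDKN1A and 64.0 CPM per kilobase for TNFRSF10B, with BAX ahead of PLK2. TP53INP1 was lowest in both, at 1.88 and 1.52 CPM per kilobase, with ZMAT3 next at 2.83 and 2.29. At 10 CPM per kilobase or more there were 19 genes in the vector and 18 in the PKP2 library. This order depends on the length taken. MDM2 has a longest transcript of 12633 nucleotides against a median of 820, so it stood at 8.03 CPM per kilobase of the longest transcript and 123.7 per kilobase of the median one in the vector library.

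The differences of the members lay in part along transcript length and GC content, as those of the whole table did. Among all genes with a mean level of at least 5 CPM, split in 5 groups by longest transcript, the median difference went from 0.13 in the shortest group to -0.16 in the longest. The 7 members in the shortest group were all higher in the PKP2 library, with a median of 0.14. They were BBC3, GADD45A, TRIAP1, BAX, TP53I3, GDF15 and PMAIP1. In the next group 5 were higher and 5 lower, and in the third and the fourth group together 2 were higher and 10 lower. In the longest group MDM4 and FBXO22 were higher and MDM2 and ZMAT3 lower, with a median of -0.01 against -0.16 for all genes there. By GC content the 8 members in the highest group were all higher, where the group's median over all genes was 0.09. The lowest GC group had 2 members higher and 5 lower, with a median of -0.10 against -0.12 for all genes. In the middle GC group 1 was higher and 5 lower, with a median of -0.09 against -0.01 for all genes. Spearman's rho over the 33 members, which share the same 2 libraries, was -0.58 with length and 0.51 with GC content.

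The role groups also differ in length, so this trend moves with the contrast between them. The median longest transcript was 1998 nucleotides for the intracellular cell death genes, 2492 for growth arrest, 3089 for death receptors and 3686 for repair. With an additive trend on length and GC removed, the median differences were 0.04 for both cell death and growth arrest, -0.07 for death receptors and -0.08 for repair. BBC3 then lay at 0.26 on the log2 scale in place of 0.47, and TNFRSF10A at -0.34 in place of -0.28. CDKN1A moved to 0.04 from 0.16, GADD45A to 0.09 from 0.22, PHLDA3 to 0.08 from 0.18, TP53I3 to 0.00 from 0.14, BAX to -0.05 from 0.14, and GDF15 to -0.13 from 0.09. With the median transcript length CDKN1A lay at 0.08, GADD45A at 0.17, PHLDA3 at 0.07, TP53I3 at 0.03, BAX at 0.05 and GDF15 at -0.02. ZMAT3 moved to -0.09 from -0.29, TP53INP1 to -0.15 from -0.28 and RRM2B to -0.13 from -0.25, whereas POLH lay at -0.22 with the longest and -0.15 with the median transcript length. MDM4 moved to 0.34 from 0.15 and MDM2 to 0.16 from -0.05, with longest transcripts of 10073 and 12633 nucleotides. With the median transcript length in place of the longest, MDM2 lay at -0.02, MDM4 at 0.31, BBC3 at 0.30 and TNFRSF10A at -0.33. Under both trends BBC3 and MDM4 were thus past 1.2-fold on the higher side and TNFRSF10A on the lower, BBC3 only just so under the first. Of the expressed genes, 6.65% were higher and 6.48% lower by 1.2-fold with the first trend removed, and 7.16% and 8.18% with the second.

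**Figure D3:**
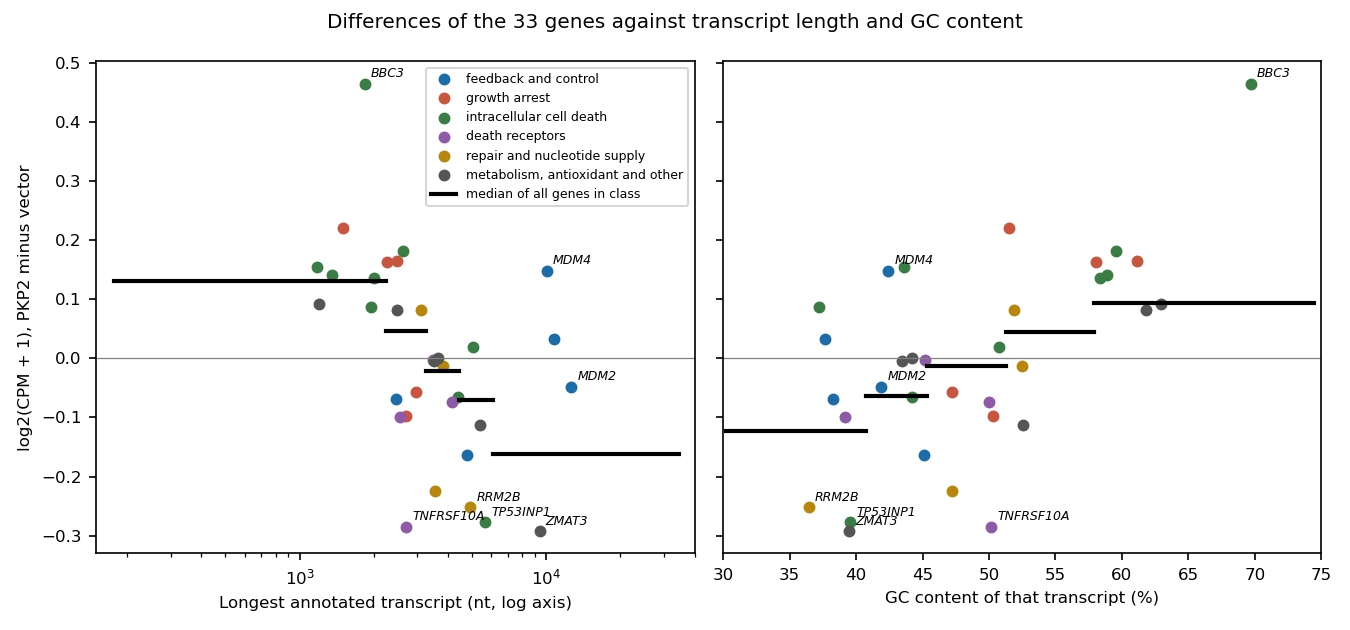
Difference of log2(CPM + 1), PKP2 minus vector, of the 33 genes against the length of the longest transcript (left, log axis, nucleotides) and its GC content (right, percent), coloured by role; black lines are the medians of all genes at a mean level of at least 5 CPM in 5 equal groups, drawn over each group's range. Points run from above 0 among short, GC-rich genes to mostly below 0 among longer ones, but the longest group has 2 on each side. BBC3, MDM4 and TNFRSF10A lie away from the lines.

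Of 70 further direct targets 65 were expressed, 32 higher and 33 lower, with a median difference of -0.02. At 1.2-fold, 1 was higher and 8 were lower, against 8.7% and 11% of all expressed genes. An interval above 1 was found for 14 of the 65 and below 1 for 13, against 16.3% and 19.8%. The 4 with the largest differences at a mean level of at least 5 CPM were all lower. CPEB4, which controls poly(A) tails of mRNAs, was at 68.7 and 44.2 CPM, 1.55-fold lower (1.42 to 1.71). E2F7, an atypical E2F that represses cell cycle genes, was 1.41-fold lower (1.24 to 1.604), PANK1, a pantothenate kinase of coenzyme A synthesis, 1.37-fold lower (1.14 to 1.64), and ACER2, an alkaline ceramidase, 1.33-fold lower (1.05 to 1.69). Once that trend was taken out, CPEB4 lay at -0.42, E2F7 at -0.37, PANK1 at -0.28 and ACER2 at -0.43, all still past 1.2-fold.

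Of the 18 upstream regulators chosen for comparison 17 were analysed, 6 higher and 11 lower, with a median of -0.13. An interval above 1 was found for 2 (11.8%) and below 1 for 7 (41.2%), against 16.3% and 19.8% of all expressed genes. CDKN2A was not analysed here. The acetyltransferase EP300, a coactivator of p53, was 1.25-fold lower (1.17 to 1.34), the damage kinase ATR 1.22-fold lower (1.09 to 1.36) and HIPK2, a kinase that phosphorylates p53, 1.21-fold lower (1.15 to 1.26). RPL11, a ribosomal protein that can bind MDM2, was 1.23-fold higher (1.19 to 1.27). The median longest transcript of this list was 4741 nucleotides. With the trend on the longest transcript removed 7 were higher and 10 lower and the median was -0.04. EP300 then lay at -0.20, ATR at -0.09, HIPK2 at -0.10 and RPL11 at 0.20. With the median transcript length the list median was -0.09, and these genes lay at -0.38, -0.22, -0.19 and 0.28. Their differences with no trend removed were -0.32, -0.28, -0.27 and 0.30.

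Of 12 genes that p53 lowers through p21 and the DREAM repressor complex 6 were higher and 6 lower, with a median of 0.02. An interval above 1 was found for 4 (33.3%, against 16.3% of all expressed genes) and below 1 for 1 (8.33%, against 19.8%). With the length and GC trend removed 4 were higher and 8 lower and the median turned to -0.04, while it was 0.03 with the median transcript length. The phosphatase CDC25C was at 17.9 and 20.7 CPM, with an interval of 0.986 to 1.35 and a fractional count. CDC20, an activator of the anaphase-promoting complex, was 1.07-fold higher (1.02 to 1.13), but lay at -0.05 on the log2 scale without the trend. Cyclin A2 gene CCNA2, also with a fractional count, was 1.101-fold lower (1.03 to 1.17), and the checkpoint kinase BUB1 had an interval of 0.865 to 1.01.

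**Figure D4:**
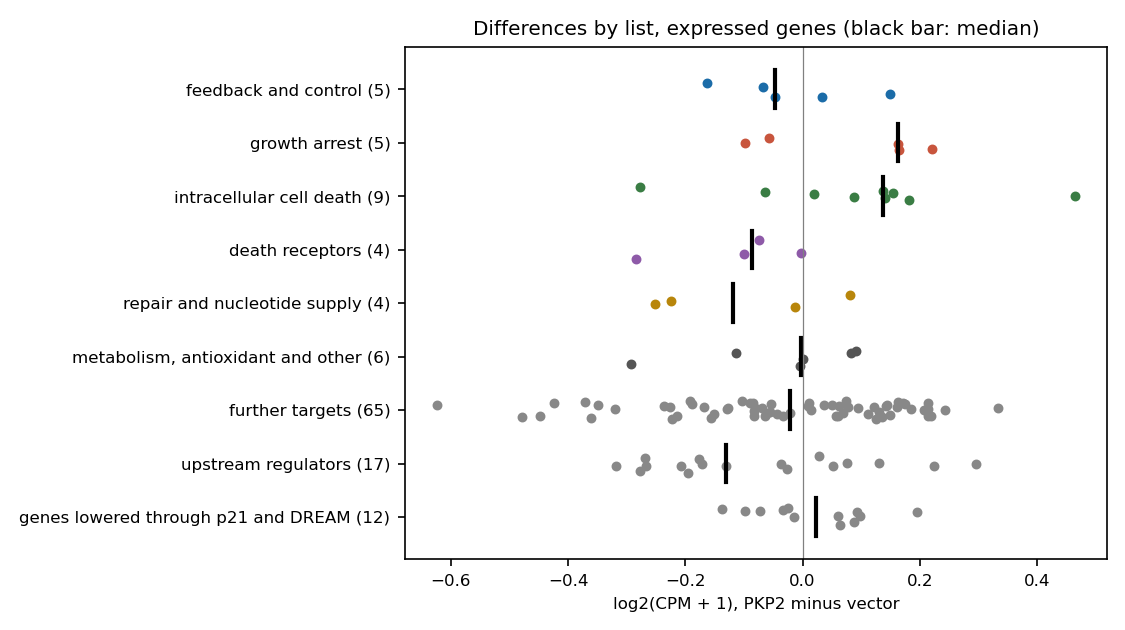
Difference of log2(CPM + 1), PKP2 minus vector, of the expressed genes of each role group and of the other pathway lists, with the number of genes in brackets, 1 point per gene and a black bar at the median; the vertical scatter within a row has no meaning. The medians run from -0.13 for upstream regulators to 0.16 for growth arrest genes, and each list except the death receptors has genes on both sides of 0.

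Some of these values are uncertain because reads may be shared with other genes. Of the 33 genes 5 had a fractional count in at least 1 library, namely FBXO22, FAS, TNFRSF10B, POLH and ZMAT3. Exons of 14 members overlap those of another annotated gene, among them FAS with ACTA2, POLH with GTPBP2, BBC3 with a pair of microRNA genes and MDM2 with CPM, the carboxypeptidase M gene. The strand setting of the counting is not given in the sources used here. Reads in the exon stretches that such pairs share thus cannot be assigned with certainty. Without the 14 genes 9 members were higher and 10 lower.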

How the data were processed

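Total RNA of A549 cells was sequenced in 1 vector and 1 PKP2 library. The authors deposited 1 estimated count per Entrez gene ID and library, called a count per the file headers and not scaled for depth. Per the submitters' processing notes the tools were HISAT2 2.0.4, Bowtie2 and RSEM 1.2.12, on build GRCh38.p12. Which of them made the counts, the annotation and the strand setting were not given in the sources used here.

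CPM was computed per 1000000 counts of the library total. Differences are log2(CPM + 1), PKP2 minus vector, which understates those of low genes. Ratios are of CPM, with exact 95% Clopper-Pearson intervals from counts rounded to whole numbers, covering counting error only. Expressed means a level of 1 CPM or above in either library. With 1 library per group no test was possible, and differences compare these libraries, not the conditions. Symbols came from RefSeq by Entrez ID (16183 of 16399 matched), positions, lengths and GC content from GENCODE 29 (98.8% of expressed genes). The length and GC trend was an additive lowess fit (span 0.3, statsmodels 0.14.6), and the calculation was tested on simulated data.

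The members, lists and alternatives were chosen with earlier results of these data known. All 33 members are named. Those past 1.2-fold, with MDM2, CDKN1A, BAX and GDF15, are given in full, and up to 4 genes of each other list. Alternatives were other pseudocounts, scalings, filters, thresholds and lengths. The trend on median length and the exclusion of overlapping genes were added after seeing the data.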

Additional observations from a re-analysis of the deposited data

How the results depend on the processing

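Each value was recomputed under the alternatives. Staying inside an interval allows a turned sign, as for growth arrest at -0.06 without overlapping genes and the p21 and DREAM genes at -0.04 with the trend removed. Of the list medians 99 stayed inside the median counting interval of their members and 1 did not, that of feedback and control, at 0.16 with the length and GC trend removed against -0.05, and the cause was not tested. All members had a mean of at least 5 CPM, so the changes of filter could not move the medians of the role groups. Of the values of single members 182 stayed inside their counting interval, and all 16 that did not came from removing a length and GC trend. The trend on the longest transcript moved 11 of the 33 members and that on the median transcript 5. Each pseudocount and scaling left all 33 inside, but these settings change a value little, so the total of 182 says little about stability. No member past 1.2-fold changed direction under any alternative run, but BAX (to -0.05) and GDF15 (to -0.13), with intervals above 1, did so with the trend on the longest transcript, and GDF15 (-0.02) with that on the median transcript. The number of members lower by 1.2-fold or more was 3, and it was 0 with a pseudocount of 5 CPM and 1 with either trend removed. The number higher was 1, and it was 2 with either trend removed and 0 without overlapping genes, which leaves out BBC3. At 1.1-fold 8 members were higher and 6 lower, and at 1.5-fold and at 2-fold 0 and 0. Without fractional counts 3 members had an interval below 1, against 6. Without overlapping genes 9 were higher, 10 lower, 3 had an interval above 1 and 3 below, since 14 fewer genes were counted. With median transcript lengths 28 genes reached 10 CPM per kilobase in each library, against 19 in the vector and 18 in the PKP2 library. Other scalings moved the median ratio of expressed genes by 0.00 on the log2 scale, and the interval of PLK2 then included 1, which left 5 members below 1. No paired analysis was possible because each group holds 1 library, and for the same reason no replicate could be left out. Depth limits genes near 10 CPM, such as TP53INP1, to intervals over 1.5-fold wide.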

Other observations

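Partners of the cell death and arrest genes were looked up after the member values were seen, in 6 short lists of 34 genes of which 30 were expressed. APAF1, BTG1, SESN2, TNFRSF10C and TNFRSF10D also stand among the further targets above. In all 15 were higher and 15 lower, 7 with an interval above 1 and 3 below, against 16.3% and 19.8% of all expressed genes. Of the 5 expressed BH3-only partners of BBC3 3 were higher, against 49.7% of all expressed genes. BAD, a BH3-only protein controlled by growth factor kinases, was at 32.9 and 40.7 CPM, 1.24-fold higher (1.105 to 1.39). BID, which links death receptors to mitochondria, was at 64.7 and 74.1 CPM, 1.15-fold higher (1.06 to 1.24), and BIK, at 1.65 and 2.80 CPM, was 1.70-fold higher (1.04 to 2.81). BCL2L11, which encodes BIM, was at 16.5 and 16.1 CPM, with an interval of 0.825 to 1.16, and BMF was at 1.00 and 0.952 CPM. Without the trend on length and GC content the differences were 0.06 for BAD, 0.14 for BID and 0.30 for BIK, against 0.30, 0.19 and 0.52.

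The anti-apoptotic BCL2 genes went both ways. BCL2L1, which encodes BCL-XL, was at 462 and 478 CPM, a ratio of 1.03 (1.002 to 1.07) whose direction turned without the trend (-0.05), and MCL1 at 399.6 and 369 CPM was 1.08-fold lower (1.05 to 1.12). BCL2A1, a target of NF-kappaB, was at 5.59 and 7.73 CPM, 1.38-fold higher (1.05 to 1.82). Of the 6 expressed genes listed for signalling from the death receptors, among them FADD, CASP8 and CFLAR, none had an interval that excluded 1. Of the listed genes of the apoptosome and linked regulators, 3 of 5 have fractional counts here. The apoptosome genes APAF1, CYCS and CASP9 had intervals that included 1. The regulator DIABLO was at 63.8 and 70.4 CPM (1.02 to 1.199 for its ratio of 1.103). Its target XIAP was at 79.0 and 71.8 CPM, a ratio of 0.910 (0.841 to 0.984) whose direction also turned without the trend (0.06). TNFSF10, the gene of TRAIL, was at 1.35 and 1.25 CPM.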
